A study of Mus musculus with 6 samples.

Results

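The solute carrier (SLC) genes of the mouse were described in adrenal glands by the amount of RNA polymerase II on them. The genes were chosen by a rule on names, set with earlier results of these data known. Every symbol made of Slc and a digit was taken except Slc18a1 and Slc18a2, which gave 224 of the 12718 genes counted. They fall into 42 SLC families, which were put into 17 substrate groups by family number. Of the 224 symbols, 4 (Slc4a1ap, Slc7a6os, Slc9a3r1 and Slc9a3r2) belong to genes named after a carrier that encode adaptor or other proteins, and the other 220 are carriers by name.

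The polymerase was measured by ChIP-seq, the sequencing of DNA that an antibody pulls down with a protein fixed to it. The antibody was specific to RPB1(NTD), the N-terminal part of the catalytic subunit of RNA polymerase II. Whole adrenal glands came from 3 wild-type (WT) and 3 Armc5(-/-) female mice of 129 sv X CD1 background, aged 10 to 14 months, with 1 library per mouse number. The labels give no promoter or Cre for the knockout, no treatment was named, and Armc5 itself was not analysed here. ARMC5 is known as a substrate adaptor of a CUL3 ubiquitin ligase that acts on RPB1, so the comparison asks where polymerase differs on genes when it is missing. Reads had been counted for each gene in 3 places, around the site where transcription starts (TSS), along the gene body, and around the site where it ends (TES).

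Solute carriers are membrane proteins that move ions, sugars, amino acids, nucleotides, vitamins and metals across the plasma membrane, the mitochondrial inner membrane and other organelle membranes. Some run downhill as uniporters, and others couple the transport of a solute to a sodium, proton or second-solute gradient. Steroid-producing cells of the adrenal cortex depend on mitochondrial carriers, because the first and last steps of corticosteroid synthesis take place in mitochondria, and the adrenal gland is known for its high content of ascorbate, which enters cells through the SLC23 carriers. Paused polymerase gathers near the start site of many genes, while polymerase in the gene body and at the end site marks elongation and termination.

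Summed counts over the 3 regions ranged from 14511177 to 26748906 in the WT libraries and from 17936275 to 28190157 in the knockout libraries, with the fewest in WT replicates 1 and 2 and knockout replicate 1. The 224 genes took 1.15 to 1.5% of TSS counts, 1.32 to 1.46% of gene body counts and 1.55 to 1.7% of TES counts, and these ranges overlapped between genotypes in each region. All 9 cortex markers had counts, among them Star, the cholesterol transfer protein of mitochondria, at 595 ± 278 gene body CPM (reads scaled to a common total within the region, mean ± SD, n = 3) in WT. Of 8 medulla markers 7 were counted. None of the counted cortex, medulla, endothelium and macrophage markers passed the test in any region. All 7 medulla markers had gene body log2 fold changes above 0, with a median of 0.82 (0.59 at the TES), and their summed gene body level was 294, 257 and 429 CPM in WT replicates 1, 2 and 3, against 318, 856 and 404 CPM in the knockout, where replicate 2 stood apart. The summed gene body level of 4 capsule and fibroblast markers was lower in the knockout, at 87.9 to 109 against 123 to 332 CPM in WT. At the TES it was 85.6 to 120.3 against 139.6 to 382 CPM. WT replicate 1, at 123 and 139.6 CPM, was the WT library nearest to the knockout in these regions. At the TSS the sums overlapped, at 69.7 to 243 CPM in WT against 60.2 to 89.6 CPM in the knockout. Pdgfra, Col3a1 and Mgp were called lower at the TES, where 116 of the 12680 tested genes were called in either direction. The part of the cell type markers in the results below was not tested. The kidney tubule and erythroid markers were not analysed here.

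In WT adrenal glands the most polymerase per length of gene lay on carriers of mitochondria, of sulfate donors, amino acids, zinc and ascorbate. This order is by gene body CPM per kb of annotated gene length; the start and end site levels further on are per window and not per length. Slc25a3, the mitochondrial phosphate carrier, stood first with 41.2, 18.1 and 20.1 CPM per kb in WT replicates 1, 2 and 3, a mean of 26.5 ± 12.8 (SD, n = 3). Replicate 1 was well above the other two, and the same library was high in this gene at the TES, with 721 against 309.8 and 314 CPM.

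Slc25a4, the ADP/ATP exchanger of mitochondria (ANT1), followed with 12.1, 10.3 and 18.8 CPM per kb. Slc35b2, which carries the sulfate donor PAPS into the Golgi, had 8.82, 6.85 and 15.8 CPM per kb. Here replicate 3 was the highest. The intervals of 1 SD around the means of these genes overlap, but that SD is a spread between mice. Within each of the 3 WT libraries Slc25a3 lay above Slc25a4 and Slc25a4 above Slc35b2. Slc38a2, the sodium-coupled neutral amino acid transporter SNAT2, had 9.99, 6.84 and 10.1 CPM per kb. Slc39a7, a zinc carrier of the endoplasmic reticulum and Golgi, had 8.63, 5.59 and 11.1 CPM per kb.

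The next of the 15 highest were Slc25a11 (8.26 ± 2.15 CPM per kb, the oxoglutarate and malate exchanger) and Slc23a2 (8.14 ± 3.79 CPM per kb, the ascorbate carrier SVCT2). Then came Slc25a39 at 7.25 ± 1.43 CPM per kb, a mitochondrial glutathione carrier, Slc25a5 at 7.03 ± 1.81, the second ADP/ATP exchanger, and Slc3a2 at 6.92 ± 1.17, the heavy chain that holds several amino acid carriers in the plasma membrane. The last 5 were Slc16a11 at 6.87 ± 2.88, Slc25a22 (mitochondrial glutamate carrier) at 6.01 ± 0.90, Slc25a47 at 6.01 ± 0.66, Slc35a4 at 5.01 ± 1.11 and Slc4a3 (anion exchanger AE3) at 4.97 ± 0.90 CPM per kb. Neighbours in this order did not differ beyond their SD, which is a spread between mice. Their order within a library was not tested. Of the 15, 7 belong to the SLC25 family.

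**Figure D1:**
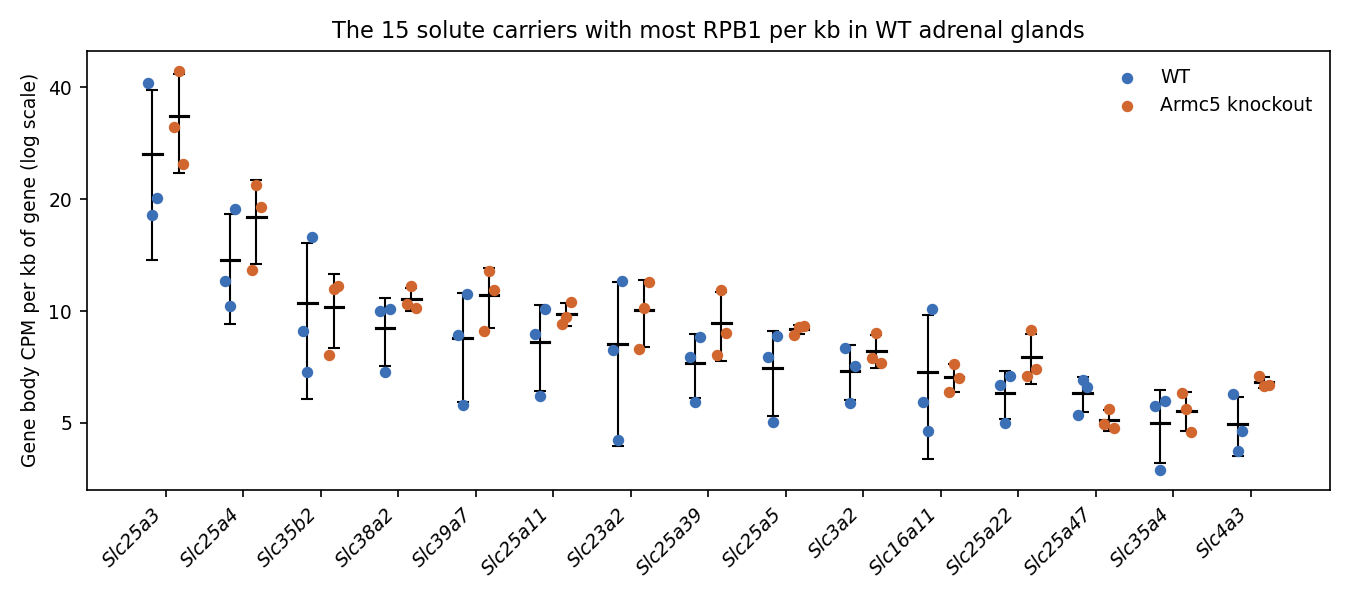
Gene body CPM per kb of gene (log axis) of the 15 carriers with the highest WT mean. Points are single libraries, bars the mean and error bars 1 SD of 3 mice; WT and knockout points of most genes overlap, and Slc25a3 stands at the top with WT values from 18.1 to 41.2.

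The median of the 224 genes was 1.45 CPM per kb, with quartiles at 0.88 and 2.50 and a range from 0.37 to 26.5, against a median of 1.73 CPM per kb over the 12384 genes with a length. At the TSS the median WT mean was 39.8 CPM against 54.4 CPM over those genes. The TSS held a median of 8.51% of a carrier's counts in WT, against 10.1% over those genes. On each of these measures the median carrier lay below the median gene.

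The order depends on the measure. Of the 15 genes, 2 were also among the 15 highest by gene body CPM without the length, 5 by TSS CPM and 6 by TES CPM. Across the 224 genes, Spearman's rho of gene body CPM per kb was 0.59 with TSS CPM and 0.66 with TES CPM. With gene body CPM not divided by length it was 0.02. These values describe genes counted in the same libraries. The 5 highest at the TSS were Slc3a2 (259 CPM), Slc38a2 (256 CPM), Slc5a3 (235 CPM), the mitochondrial carrier Slc25a30 (232 CPM) and Slc39a7 (222 CPM). The width of the start window is not given in the sources used here, so these are levels per window.

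Slc23a2 had the most gene body reads of any carrier before division by its length of 92825 bp. Its gene body CPM was 730.5, 417 and 1120.2 in WT replicates 1, 2 and 3 and 734, 947 and 1113 in the knockout. At its TES the values were 98.2, 87.3 and 388 CPM in WT against 142, 94.2 and 346 CPM in the knockout. Replicate 3 of each genotype stood far above the other libraries at the TES, and genotype did not separate them.

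Slc35g3, a member of the nucleotide sugar transporter family, was close to empty at its start and along its body and very high at its end. It had 1.92 to 4.14 CPM at the TSS in WT, from 4 to 6 reads, and 1.27, 3.19 and 1.85 CPM in the gene body. In the knockout its gene body held 4.70, 4.11 and 5.52 CPM, above all WT libraries, a log2 fold change of 1.22 ± 0.35 that did not pass (edgeR adjusted p = 0.449). These values rest on 23 to 112 reads per library. Its TES held 1829, 1419.6 and 2267 CPM in WT against 1761, 2071 and 1788 CPM in the knockout, the rank 5 level of all 12718 genes. Polr2a, the gene of RPB1 itself, lies 1251 bp away and had 553 to 661 TSS CPM in WT against 460.3 to 503.5 in the knockout. Its TSS change did not pass (-0.37 ± 0.17, edgeR adjusted p = 0.909). The gene body of Polr2a overlapped between genotypes, at 224 to 920 CPM in WT against 188 to 386 CPM in the knockout, and did not pass either. At the TES of Polr2a the log2 fold change was 0.31, which did not pass. Of the 224 genes, 151 overlap or lie within 2000 bp of another annotated gene, and 24 overlap one that was itself counted, so that the windows can share reads.

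None of the 15 highest carriers was called in the knockout in any region. Their gene body log2 fold changes of knockout over WT ran from -0.24 to 0.38. The median was 0.30, against -0.06 over the 224 genes. Their medians were -0.08 at the TSS and 0.12 at the TES, against -0.03 and -0.01 over carriers. The smallest edgeR adjusted p was 0.934 in the gene body, 0.952 at the TSS and 0.590 at the TES. Slc25a3 itself had 31.3, 44.3 and 24.8 CPM per kb in the knockout, inside a range that overlaps WT. The lowest of these p-values belonged to Slc4a3 at the TES, with 172, 99.02 and 65.6 CPM in WT against 238, 149 and 138 CPM in the knockout. A value that missed the threshold does not show equal levels.

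In the knockout 3 carriers held more polymerase, relative to the other genes counted. They were the same 3 for the gene body and for the TES. These were Slc20a1, the sodium-phosphate cotransporter PiT-1, Slc26a2, the sulfate carrier of the plasma membrane, and Slc5a3, the sodium/myo-inositol cotransporter SMIT1. Their scaled gene body counts were 2.01 to 2.52 times and their scaled TES counts 2.27 to 2.43 times those of WT. A change shared by most genes is taken out by the scaling within a region and would not be seen here. At the TSS 0 of 222 tested carriers were called. These 3 were among the genes already known from earlier results on these libraries, so their naming here is a description of them.

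The shares were small and are read against those of all genes. In the gene body 3 of 224 carriers were called higher, where 0.244% of the 12714 tested genes were, and 0 were called lower. At the TES 3 of 224 were called higher, where 0.82% of the 12680 tested genes were, and 0 were called lower. At the TSS 0 of 222 were called higher, where 0.339% of the 12682 tested genes were. DESeq2 also called 0 of them, where it called 95 genes in all. All 224 genes passed the filter on low counts for the gene body and TES, and 222 did at the TSS, where Slc35g3 and the bicarbonate carrier Slc4a10 were under it.

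Slc20a1 lies at chr2:129198773-129211615 (GRCm38.p6), a gene of 12843 bp. Its gene body held 37.0, 32.3 and 38.5 CPM in WT replicates 1, 2 and 3 and 82.8, 96.8 and 92.0 CPM in the knockout. All 3 knockout libraries lay above all 3 WT libraries, and the level per kb was 2.80 ± 0.25 in WT and 7.05 ± 0.55 in the knockout (SD, n = 3). The log2 fold change was 1.33 ± 0.14 (SE, edgeR adjusted p = 0.0332), from 385 to 2240 reads per library. At the TES the values were 58.5, 40.2 and 59.04 CPM in WT against 124, 95.5 and 145 CPM in the knockout, again without overlap (1.19 ± 0.24, edgeR adjusted p = 0.00313).

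At the TSS, Slc20a1 had 212, 169 and 233 CPM in WT against 279.7, 299.6 and 391 CPM in the knockout. The groups did not overlap there either, but the change was smaller and did not pass (0.65 ± 0.19, edgeR adjusted p = 0.417). The other phosphate carrier of the family, Slc20a2 (PiT-2), had 117, 131 and 131 gene body CPM in WT against 118, 119 and 114 CPM in the knockout. Its log2 fold changes were -0.11 ± 0.12 in the gene body, 0.03 ± 0.16 at the TSS and 0.08 ± 0.23 at the TES, none of which passed.

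Slc26a2 spans 14743 bp. Its gene body held 34.7, 31.1 and 27.8 CPM in WT against 65.98, 80.4 and 77.1 CPM in the knockout (1.26 ± 0.15, edgeR adjusted p = 0.0332). Its TES values were close together in WT, at 30.8, 30.4 and 31.1 CPM, and reached 82.0, 79.1 and 64.4 CPM in the knockout (1.28 ± 0.23, edgeR adjusted p = 0.000538). These TES values rest on 31 to 173 reads per library. In both regions the genotypes did not overlap.

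At the TSS, Slc26a2 had 162, 139 and 109 CPM in WT against 189.7, 119 and 123 CPM in the knockout, which overlapped (0.07 ± 0.22, edgeR adjusted p = 0.991). The TSS held 30.4, 25 and 33.3% of its counts in WT and 23.6, 17.7 and 16.5% in the knockout. The highest knockout share was below the lowest WT share. Its ratio of TSS to gene body counts had the lowest log2 change of the 3 carriers, -1.20 ± 0.27, which did not pass over all genes (edgeR adjusted p = 0.876). With a covariate for the 3 shallow libraries the adjusted p was 0.0323, the one carrier and the one setting to pass. The long non-coding gene Gm52353 overlaps it by 3613 bp and was not analysed here, as was its relative Slc26a1.

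Slc5a3 lies at chr16:92058322-92087473 (GRCm38.p6) and spans 29152 bp. Its gene body held 75.2, 63.7 and 59.1 CPM in WT against 127, 140.2 and 130.2 CPM in the knockout, with no overlap (1.01 ± 0.14, edgeR adjusted p = 0.0444). At the TES it had 52.6, 45.1 and 31.1 CPM in WT against 96.6, 116 and 89.0 CPM in the knockout, with no overlap (1.24 ± 0.24, edgeR adjusted p = 0.00150). Start site counts were 217, 220.3 and 268 CPM in WT against 248, 289 and 276 CPM in the knockout, and these overlapped (0.20 ± 0.16, edgeR adjusted p = 0.952). Slc5a11, the second myo-inositol cotransporter of the family, was not analysed here.

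Slc5a3 shares its place with Mrps6, a gene of the small mitochondrial ribosome subunit at chr16:92058336-92112227. The annotated starts are 14 bp apart and the genes overlap over 29138 bp, so their TSS reads and their gene body reads within the overlap cannot be told apart. Mrps6 runs on past the end of Slc5a3, and polymerase on that part of its body was not tested on its own. The end of Slc5a3 lies inside Mrps6 too, and reads at the Slc5a3 TES cannot be told from those of the Mrps6 gene body. Mrps6 had 126, 105 and 101 gene body CPM in WT against 189.6, 233 and 204 CPM in the knockout (0.92 ± 0.15, edgeR adjusted p = 0.0763). At its own TES, beyond the end of Slc5a3, it had 54.4, 55.9 and 34.99 CPM in WT against 64.4, 84.5 and 61.0 CPM in the knockout, a log2 change of 0.56 ± 0.23 that did not pass. The difference between the 2 end sites, 1.24 for Slc5a3 and 0.56 for Mrps6, was not tested.

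**Figure D2:**
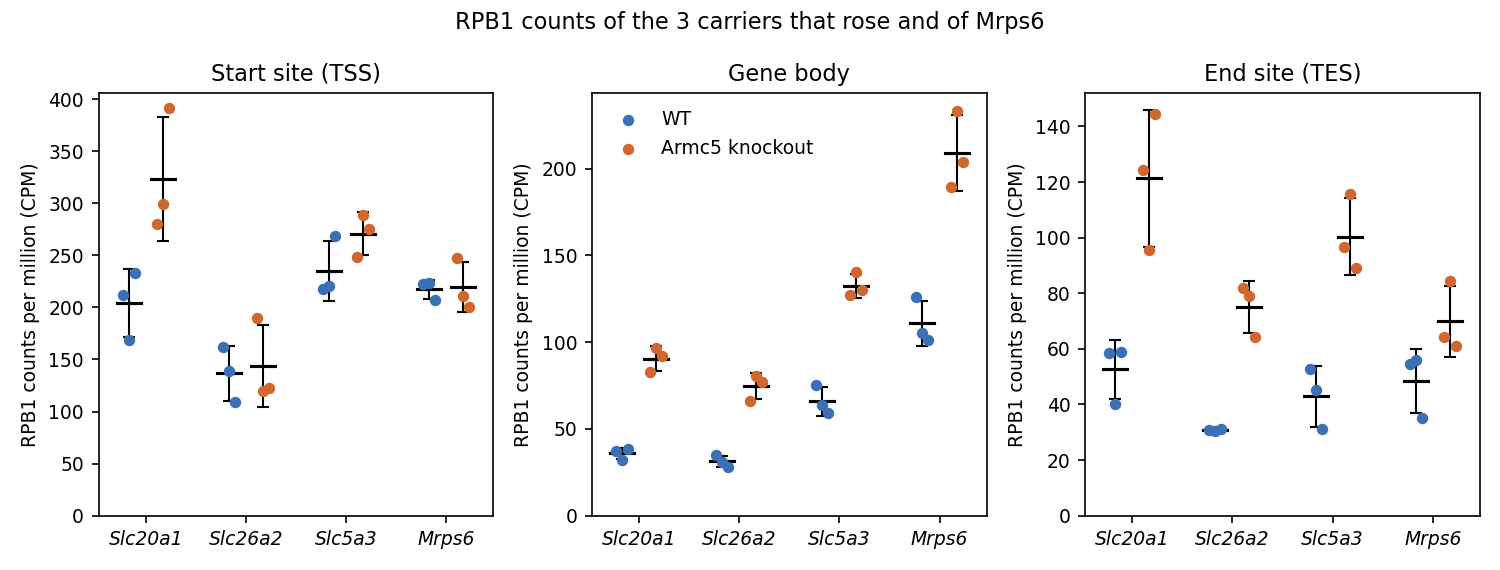
RPB1 CPM of Slc20a1, Slc26a2, Slc5a3 and the overlapping gene Mrps6 in the 3 regions, scaled within each. Points are libraries, bars the mean and error bars 1 SD of 3 mice; the 3 carriers do not overlap between genotypes in the body or TES panels, while at the TSS Slc20a1 alone does not.

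How far these calls hold differed by region. At the TES each of the 3 carriers passed in 16 of 16 alternatives, with adjusted p at most 0.0294 for Slc20a1, 0.00609 for Slc26a2 and 0.0141 for Slc5a3. In the gene body Slc20a1 passed in 9, Slc26a2 in 8 and Slc5a3 in 7 of 16, with log2 fold changes from 1.23 to 1.39, 1.14 to 1.34 and 0.89 to 1.11. All 3 gene body calls were lost with scaling by all regions together, with a covariate for the series of mouse numbers and with the replicate number as a block. In each of these settings 0 genes in all were called in the gene body. Over the 16 alternatives the adjusted p reached 0.257 for Slc20a1, 0.257 for Slc26a2 and 0.316 for Slc5a3. Without WT replicate 1, or without any one of knockout replicates 1, 2 and 3, 0 carriers were called in the gene body, as 0 genes in all were. Without WT replicate 3 only Slc20a1 was called, and without WT replicate 2 Slc20a1 and Slc26a2 were. Reads of a whole gland cannot tell fewer cells of a type from less polymerase per cell.

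The promoters of Slc20a1 and Slc5a3 are shown because they are the sequence at the start sites just described, with that of Slc38a2, a carrier high in WT and not called, beside them. Sequences are from RefSeq (GRCm38.p6) and run from 250 bases before to 50 after a gene start. Capitals mark matches, on either strand, to any of the motifs searched: the TATA box TATAAA, the GC box GGGCGG, the CCAAT box, the cAMP element core TGACGT, the E-box CACGTG, the NFAT5 core TGGAAA and the amino acid response core TGATGNAA.
Slc20a1: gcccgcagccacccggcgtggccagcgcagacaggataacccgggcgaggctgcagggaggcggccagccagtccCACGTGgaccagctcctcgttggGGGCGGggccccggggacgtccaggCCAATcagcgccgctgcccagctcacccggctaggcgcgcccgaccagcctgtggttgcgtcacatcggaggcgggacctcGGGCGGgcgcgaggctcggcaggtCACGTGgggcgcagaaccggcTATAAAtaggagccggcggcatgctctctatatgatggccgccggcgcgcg
Slc5a3: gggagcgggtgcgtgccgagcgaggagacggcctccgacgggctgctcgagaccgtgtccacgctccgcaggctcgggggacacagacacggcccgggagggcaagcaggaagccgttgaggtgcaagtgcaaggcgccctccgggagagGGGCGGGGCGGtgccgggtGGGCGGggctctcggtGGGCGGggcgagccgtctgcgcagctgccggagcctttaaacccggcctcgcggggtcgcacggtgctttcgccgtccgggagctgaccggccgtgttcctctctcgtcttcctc
Slc38a2: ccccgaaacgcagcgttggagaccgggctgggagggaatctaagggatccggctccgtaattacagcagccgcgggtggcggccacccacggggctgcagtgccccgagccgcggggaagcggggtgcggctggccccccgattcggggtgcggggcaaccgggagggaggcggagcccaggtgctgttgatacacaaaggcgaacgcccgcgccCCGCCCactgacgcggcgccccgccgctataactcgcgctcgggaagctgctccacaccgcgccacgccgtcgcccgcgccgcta

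The Slc20a1 window lies at chr2:129198523-129198822 on the plus strand, the Slc5a3 window at chr16:92058072-92058371 on the plus strand and the Slc38a2 window at chr15:96699679-96699978 on the minus strand. The Slc20a1 window held 2 GC boxes, 1 CCAAT, 2 E-boxes, the nearer beginning 22 bases before the start, and a TATA box that begins 1 base before the annotated start. The Slc5a3 window held 4 GC boxes, of which 2 overlap, between 100 and 65 bases before the start, and no match to the NFAT5 core. The Slc38a2 window held 1 GC box on the reverse strand and no match to the amino acid response core. GC content was 73.0, 73.3 and 73.0%, against a median of 63.0% in the carriers' windows and 61.3% in all.

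A window was found for 177 of the 224 genes and for 9911 genes in all. The GC box occurred in 74.6% of the carriers' windows and in 66.4% of all, and the E-box in 14.1 and 10.2%. TATA boxes occurred in 6.78 and 6.60%, CCAAT in 37.3 and 38.8%, TGACGT in 11.3 and 12.2%, TGGAAA in 13.6 and 15.9% and TGATGNAA in 3.95 and 2.15%. These are matches of letters and no measured sites.

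At the start site the carriers near the threshold lay in both directions. Of 222 tested, 18 had an unadjusted p under 0.05, where 5.57% of all genes did, with 9 higher and 9 lower. All knockout libraries lay above all WT libraries in 12, where 6.47% of all genes did, and below in 15, where 4.93% did. These shares of 5.41 and 6.76% are near those of all genes.

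Slc4a4, the sodium-bicarbonate cotransporter NBCe1, had the largest start site difference among the carriers named. It held 14.7, 18.6 and 17.9 TSS CPM in WT against 39.96, 31.2 and 39.2 CPM in the knockout, from 18 to 114 reads. All knockout libraries were above WT, and the log2 fold change was 1.11 ± 0.26 (edgeR adjusted p = 0.188). It passed only with scaling by all regions together and with the covariate for shallow libraries. Its gene body, 445799 bp long, had 209.8, 304 and 133 CPM in WT against 252, 136 and 193 CPM in the knockout, with no separation.

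On the lower side of the start site, Slc35a1, the CMP-sialic acid carrier of the Golgi, had 139, 149.96 and 157 CPM in WT against 108, 112 and 119 CPM in the knockout. Slc27a1, a fatty acid transport protein, had 14.2, 33.1 and 27.2 CPM against 12.9, 10.95 and 13.9 CPM. Neither passed (edgeR adjusted p = 0.672 and 0.727), and their gene body log2 fold changes were 0.13 and -0.08. Slc16a1, the lactate and monocarboxylate carrier MCT1, was on the other side, with 109, 116 and 130.5 CPM in WT against 138, 172 and 175 CPM in the knockout (edgeR adjusted p = 0.668).

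In the gene body 16 of 224 had an unadjusted p under 0.05, where 5.05% of all genes did. All knockout libraries lay above WT in 18, where 6.51% of all genes did, and below in 10, where 3.87% did. The carrier next to the 3 called was Slc25a30, a mitochondrial carrier also known as KMCP1. It had 52.9, 56.2 and 46.4 CPM in WT against 88.1, 90.3 and 80.2 CPM in the knockout, without overlap (0.73 ± 0.14, edgeR adjusted p = 0.106). Its TSS values of 246, 211 and 239 CPM in WT against 225, 242 and 214 CPM in the knockout overlapped.

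On the lower side of the gene body Slc25a42, the mitochondrial carrier of coenzyme A, came first. It had 65.6, 51.9 and 49.0 CPM in WT against 37.8, 40.01 and 35.2 CPM in the knockout, without overlap (-0.56 ± 0.16, edgeR adjusted p = 0.425). Slc25a29, a mitochondrial carrier of basic amino acids, had 34.3, 29.3 and 32.6 CPM in WT against 23.2, 24.1 and 25.6 CPM in the knockout (edgeR adjusted p = 0.750). Slc25a34 had 4.59 to 9.15 CPM in WT against 3.99 to 5.17 CPM in the knockout, which overlapped.

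At the TES 15 of 224 had an unadjusted p under 0.05, where 6.85% of all genes did. All knockout libraries lay above WT in 14, where 6.69% of all genes did, and below in 9, where 4.83% did. Slc44a4, a thiamine pyrophosphate and choline carrier, came next to the 3 called, and DESeq2 and limma-voom each called it beside them. It had 132, 105 and 139 CPM in WT against 229, 288 and 195 CPM in the knockout (0.92 ± 0.25, edgeR adjusted p = 0.0746). Its gene body had 9.89, 17.2 and 8.46 CPM in WT against 13.02, 6.18 and 10.2 CPM in the knockout, and its neighbours Ehmt2 and Neu1 lie 151 and 817 bp away.

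Lower at the TES were Slc7a2, a cationic amino acid carrier, Slc19a2, the thiamine carrier THTR1, and Slc25a51, the mitochondrial NAD carrier. Slc7a2 had 40.8, 47.1 and 26.7 CPM in WT against 27.6, 15.1 and 22.1 CPM in the knockout, which overlapped. Slc19a2 had 43.2, 58.8 and 69.5 CPM against 45.2, 29.7 and 39.8 CPM. For Slc25a51 the values were 101, 98.0 and 152 CPM against 64.4, 77.2 and 99.3 CPM. None passed, with edgeR adjusted p of 0.421, 0.467 and 0.592, and each of the 3 had at least 1 knockout library inside the WT range.

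The change along the gene was tested as a ratio, that of start site or end site counts to those of the gene body. For the TSS ratio 0 of 222 carriers were called, where 0.0% of all genes were, and 10 had an unadjusted p under 0.05, where 3.64% of all genes did. For the TES ratio 0 of 224 were called, where 0.0158% of all genes were, and 15 had an unadjusted p under 0.05, where 5.7% did. Limma on the log2 ratio also called 0 of each. The TSS ratio of the 3 called carriers had log2 changes of -0.68 ± 0.19 for Slc20a1, -1.20 ± 0.27 for Slc26a2 and -0.81 ± 0.21 for Slc5a3. Their TES ratios were -0.15 ± 0.22, 0.01 ± 0.23 and 0.25 ± 0.20, none of which passed.

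Other carriers had TSS ratios as far from 0, and none passed, with an edgeR adjusted p of 0.955 for each. Slc25a30 had -0.77 ± 0.18. On the other side stood Slc4a4 with 1.16 ± 0.32, Slc24a2, a potassium-dependent sodium/calcium exchanger, with 0.91 ± 0.41, and Slc6a17, a vesicular carrier of neutral amino acids, with 0.74 ± 0.28. The last pair had few start site reads, with 4.16 to 12.4 and 8.00 to 12.4 TSS CPM in WT against 6.59 to 15.6 and 12.8 to 15.3 CPM in the knockout. For the TES ratio the smallest p-values on the higher side belonged to Slc44a4 (1.14 ± 0.37), the adaptor gene Slc4a1ap (0.65 ± 0.28) and the Golgi zinc carrier Slc30a7 (0.42 ± 0.19). On the lower side were Slc35g3 (-1.22 ± 0.38), Slc45a4 (-0.59 ± 0.22) and Slc12a2, the sodium-potassium-chloride cotransporter NKCC1 (-0.51 ± 0.20). Their edgeR adjusted p ran from 0.751 to 0.839.

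**Figure D3:**
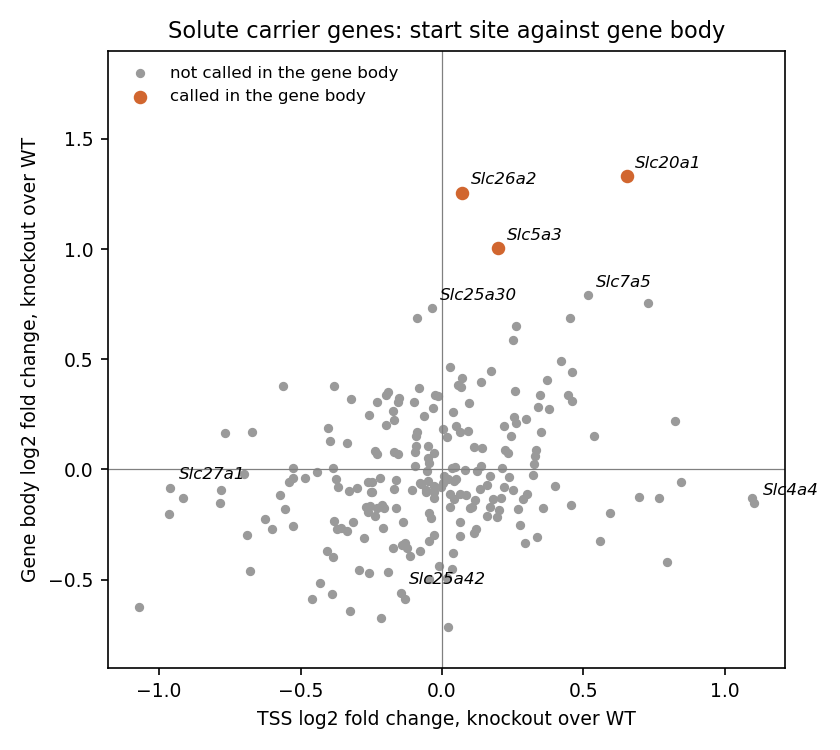
Log2 fold change of knockout over WT for the TSS (x axis) and the gene body (y axis) of the carriers tested in both regions, 1 point each, with those called in the gene body in orange. Slc20a1, Slc26a2 and Slc5a3 stand above the rest in the gene body at 1.01 to 1.33 while their TSS values are 0.07 to 0.65; Slc4a4 is high at the TSS alone.

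The carriers as a whole were centred near all genes. The median log2 fold change over carriers was -0.03 for the TSS, -0.06 for the gene body and -0.01 for the TES, and over all tested genes -0.01, -0.02 and -0.02. Values above 0 were 102 of 222 at the TSS, 90 of 224 in the gene body and 109 of 224 at the TES. That split follows the scaling: with factors from all regions together it was 174 of 222, 68 of 224 and 82 of 224, as the median of all genes moved to 0.24, -0.12 and -0.12. With table totals it was 136 of 222 at the TSS, and without WT replicate 2 it was 127 of 224 in the gene body.

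By substrate, the calls fell in 3 of the 17 groups, 1 of 2 phosphate carriers, 1 of 10 bicarbonate, chloride and sulfate carriers and 1 of 19 sugar and polyol carriers. The largest group, the 41 mitochondrial carriers, had a median gene body log2 fold change of -0.01, with 20 above 0 and a range from -0.67 to 0.73. The 34 carriers of amino acids and neurotransmitters had a median of -0.12 with 11 above 0, and the 28 of nucleosides and nucleotide sugars had -0.04 with 12 above 0. Without WT replicate 2 the amino acid group had a median of 0.02 with 20 above 0. The 26 metal carriers had 0.02 with 15 above 0. Sugar and polyol carriers had a median of 0.23, with 12 of 19 above 0, and the median was 0.11 without WT replicate 1 and 0.11 without knockout replicate 2.

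All 6 sodium/calcium exchangers (SLC8 and SLC24) and all 4 vesicular carriers had gene body values below 0, with medians of -0.28 and -0.24, and none of them passed the test. The highest of the exchangers per kb, Slc8b1, the mitochondrial sodium/calcium exchanger, had 46.7, 45.3 and 48.3 CPM in WT against 40.6, 37.5 and 41.4 CPM in the knockout. The summed level of the exchangers was 666, 1030 and 532 CPM in WT against 678, 453 and 573 CPM in the knockout, which overlapped, with WT replicate 2 the highest. Of the 10 genes of sodium and proton exchange 1 was above 0, the adaptor Slc9a3r2 at 0.01. The signs rest on WT replicate 2: without it 3 of the 6 exchangers, 3 of the 4 vesicular carriers and 5 of the 10 sodium and proton exchange genes were above 0, with medians of -0.01, 0.05 and 0.02. Under the other scalings tried, table totals, RLE and joint factors, the exchangers and vesicular carriers all stayed below 0, and 3, 0 and 0 of the 10 were above it.

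**Figure D4:**
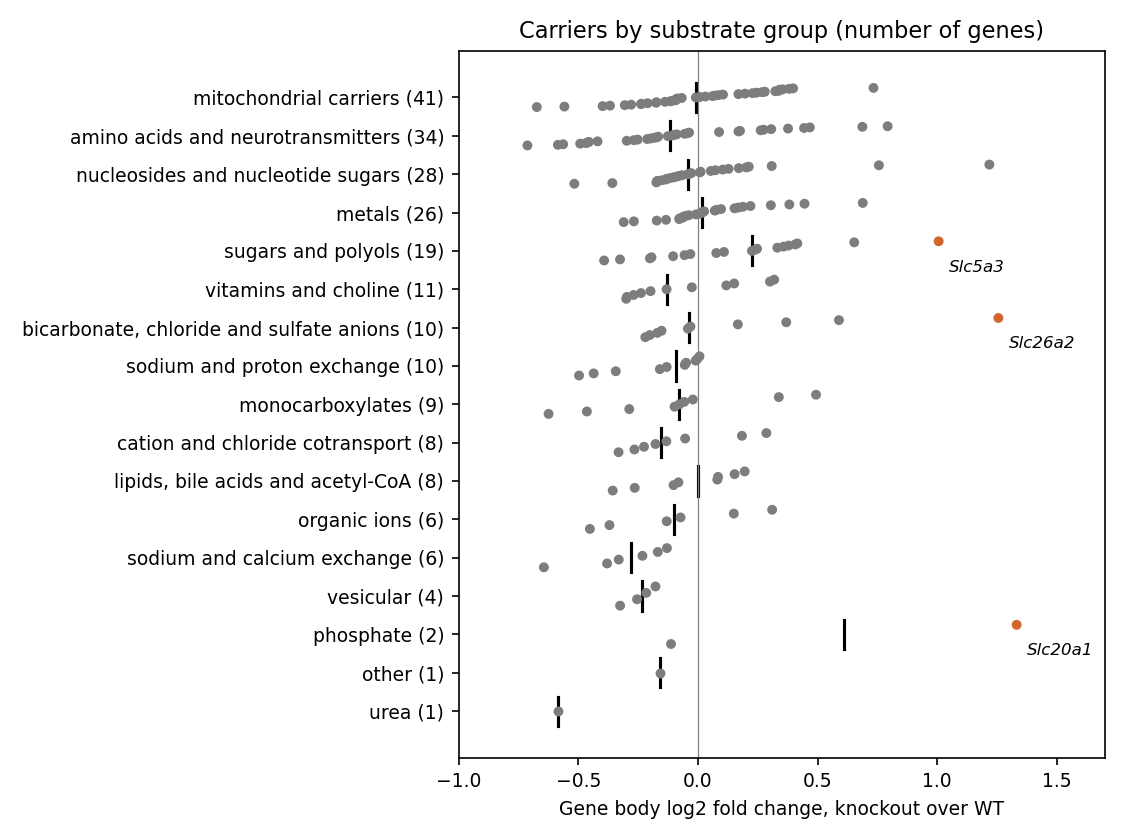
Gene body log2 fold change of knockout over WT of the 224 genes by substrate group, with the number of genes in each. Points are genes, set apart vertically by rank to keep them visible, black bars are group medians, and orange marks the 3 called genes; each other gene was not called.

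Group leaders by gene body level, not yet given, showed no call either. Slc22a5, the carnitine carrier OCTN2, had 63.8, 64.3 and 65.98 gene body CPM in WT against 72.2, 91.0 and 77.3 CPM in the knockout, without overlap (0.31 ± 0.14, edgeR adjusted p = 0.934). Its TSS had 83.8, 94.1 and 107 CPM in WT against 114, 135 and 144 CPM in the knockout. Slc12a4, the potassium-chloride cotransporter KCC1, had 61.4, 50.8 and 76.9 CPM in WT against 48.9, 50.5 and 58.0 CPM in the knockout. Slc37a4, the glucose-6-phosphate carrier of the endoplasmic reticulum, had 26.8, 19.3 and 38.9 CPM in WT against 30.3, 43.5 and 35.3 CPM in the knockout.

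Slc27a3, of the fatty acid transport family, had 22.7, 22.8 and 22.8 CPM in WT against 24.97, 22.9 and 24.6 CPM in the knockout. Slc17a9, the vesicular nucleotide carrier, had 20.6, 23.998 and 23.2 CPM in WT against 19.9, 18.4 and 18.5 CPM in the knockout. Slc49a4 had 78.4, 92.1 and 71.6 CPM against 79.7, 70.7 and 66.3 CPM, and the urea carrier Slc14a1 had 21.3, 43.97 and 14.1 CPM against 24.2, 11.1 and 17.4 CPM. Their gene body log2 fold changes lay between -0.59 and 0.36, and edgeR adjusted p was at least 0.934 for each.

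Genes that work with these carriers were taken from 4 lists outside the SLC names, and 0 of their members were called in any region. Over all tested genes 43 of 12682 were called at the TSS, 32 of 12714 in the gene body and 116 of 12680 at the TES. With shares this small, a count of 0 among so few genes tells nothing about the lists. These lists had 9 genes of the amino acid response, 6 of the tonicity response and inositol use, 6 of sulfate and phosphate use and 11 of carrier partners and ion pumps. Median gene body log2 fold changes were 0.21, 0.02, -0.04 and 0.10. Chac1, a glutathione-degrading enzyme with the largest gene body change of the 9 amino acid response genes, did not overlap between genotypes. It had 6.47, 5.96 and 5.02 gene body CPM in WT against 10.9, 12.9 and 13.4 CPM in the knockout (1.09 ± 0.20, edgeR adjusted p = 0.0988). In the same list Trib3, Sesn2 and Aldh18a1 were below 0, at -0.36, -0.09 and -0.06, and the others were above it. Nfat5, the tonicity transcription factor, had 297, 219.8 and 258 CPM in WT against 239, 317 and 242 CPM in the knockout, which overlapped.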

How the data were processed

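RPB1 ChIP-seq counts of 6 adrenal gland libraries, 3 WT and 3 Armc5 knockout, were used. The authors deposited whole-number read counts per gene for the TSS, gene body and TES, with 12718 genes per table. The joint table of 38154 rows, also deposited, held the same counts, and the log2 CPM values the authors deposited were computed from it (0 cells differed by over 1e-06), so neither entered a test. Per the submitters' processing notes, builds were GRCm38 and mm10 and the tools named were BWA, Trimmomatic, Picard, bcl2fastq 2.20, HOMER, MACS2, limma and edgeR. Which tool counted the reads, the window widths, the read filters and any input libraries are, for the sources used here, not stated, so overlapping or neighbouring genes and near-identical copies may share reads.

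The tests used edgeR 4.0.16 (R 4.3.3) on each region table, with TMM scaling within it, filterByExpr (minimum count 10, minimum total 15) and its quasi-likelihood test between genotypes. P-values were adjusted over all tested genes by Benjamini-Hochberg, and called means an adjusted p under 0.05. SE is the log2 fold change over the square root of F. Ratios to the gene body were tested as region by genotype interactions with each library as a block. CPM is scaled within a region, so levels are not compared between regions, and CPM per kb divides by the RefSeq gene span (GRCm38.p6; 12384 of 12718 symbols and all 224 carriers matched), an approximation because the body windows are not given. P-values judge the genotype difference, in level or in ratio, against the spread between mice. The procedure was tested on simulated data.

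Genes named were the 15 highest carriers by WT gene body CPM per kb and the 5 highest at the TSS; called carriers (at most 12 per table and direction); the 3 smallest p where fewer than 3 were called in a direction; Slc20a1, Slc26a2, Slc5a3 and family members; and each substrate group's highest gene. Of the genes this rule takes, 1 is not reported here. The members and lists were chosen with earlier results of these data known. Alternatives were RLE scaling, table totals, joint table scaling, no filter, 20 counts in 3 libraries, DESeq2 1.42.0, limma-voom (limma 3.58.1), replicate, mouse number series and depth covariates, and leaving out each library. Armc5 and Th were not analysed here.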

Additional observations from a re-analysis of the deposited data

How the results depend on the processing

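Counts of carriers are given here out of all genes called. The TSS count of called carriers, 0 of 43, became 1 of 107 (Slc4a4) with joint table scaling. It was 1 of 158 with the depth class covariate, which separates the 3 shallow libraries. The gene body count of 3 of 32 became 0 of 0 with joint table scaling and 0 of 0 with the mouse number series covariate. It was 5 of 95 with the depth class covariate and 6 of 179 with DESeq2, which added Slc25a30, Slc40a1 and Slc7a5. Leaving out 1 library gave 0 to 2 in the gene body, where 0 to 37 genes in all were called. The TES count of 3 of 116 became 5 of 184 with the depth class covariate (adding Slc44a4 and Slc4a3). It was 3 to 5 when 1 library was left out, where 73 to 148 genes in all were called. The 5 were without WT replicate 3 (adding Slc23a2 and Slc44a4). The TSS ratio count of 0 of 0 became 1 of 27 (Slc26a2) with the depth class covariate. The cause of these changes was not tested. With the replicate number as a block the gene body count was 0 of 0 and the TES count 3 of 194. Same-numbered libraries deviated together unevenly. Their correlations were 0.443, -0.215 and 0.361 for the TSS and 0.0734, -0.594 and 0.277 for the gene body. For the TES they were 0.0307, -0.31 and 0.212. With 3 mice a genotype these correlations cannot settle whether the numbers pair the mice. WT replicate 1 and knockout replicate 1 both had mouse numbers of the C series. Across all named values and settings 0 changed sign as a called value. Depth was low for some values: the TES of Slc26a2 had 31 to 173 reads per library and the TSS of Slc4a4 18 to 114.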

Other observations

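A pair of carriers that the naming rule did not take, chosen after their values were seen, were called in the gene body by DESeq2. Slc7a5, the large neutral amino acid carrier LAT1 and partner of Slc3a2, had 81.7, 83.99 and 54.9 gene body CPM in WT replicates 1, 2 and 3, against 129.6, 130.1 and 122 CPM in the knockout, without overlap. Its log2 fold change was 0.79 ± 0.18 with an edgeR adjusted p of 0.217. At the TSS it had 118, 163 and 166 CPM in WT against 165, 239 and 233 CPM in the knockout, which overlapped (edgeR adjusted p = 0.727). Its partner Slc3a2 had 131, 93.2 and 118 gene body CPM in WT against 123, 144 and 119 CPM in the knockout.

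Slc40a1, the iron exporter ferroportin, had 23.99, 26.4 and 25.9 gene body CPM in WT against 43.4, 36.8 and 42.8 CPM in the knockout, without overlap (0.69 ± 0.14, edgeR adjusted p = 0.154). At the TES it had 31.9, 25.5 and 20.6 CPM in WT against 35.3, 37.0 and 53.6 CPM in the knockout (edgeR adjusted p = 0.443). Ferroportin is a known product of macrophages that recycle iron. The summed level of 5 macrophage markers was 52.6 to 84.3 CPM in WT against 64.9 to 82.5 CPM in the knockout for the gene body. At the TSS it was 149 to 204 against 138 to 161 CPM, and at the TES 509 to 642 against 668 to 724 CPM. Cd68 held the most of the TES sum, with 322, 257 and 383 CPM in WT against 401, 430 and 456 CPM in the knockout (edgeR adjusted p = 0.892). The TES log2 fold changes of Lyz2 and Cd74 were -0.27 and -0.18, and those of C1qa and C1qb 0.10 and 0.32. The part of these markers in the values of Slc40a1 was not tested.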
